A study of Sus scrofa with 31 samples.

Results

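The blood of fetal miniature pigs held 50 array features that were expressed there and at none of 3 later ages. They were chosen by presence calls. Presence meant that the scanner software flagged the spot as positive and significant and also as well above background, and a probe counted as expressed at an age if over 75% of that age's arrays showed it. The 50 probes were present on at least 7 of 8 fetal arrays and missed that share at 12, 20 and 30 weeks. They were 50 of 43603 probes on the array and of 5717 probes expressed at the fetal stage, of which 5519 were expressed at all 4 ages. One further probe that met the presence rule was left out by its name or description. Of the 50, 24 probes carried a gene name or a described product and stood for 18 genes, and 26 had neither.

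The animals were healthy specific pathogen-free Clawn miniature pigs of both sexes, without treatment. Fetuses were taken by Caesarean section before term (8 arrays, 4 male and 4 female), and blood was drawn at 12 weeks (8 arrays), 20 weeks (8 arrays) and 30 weeks (7 arrays, 3 male and 4 female). The pigs of the later ages were one housed cohort, and no source used here links arrays of different ages to the same animal. The tests treat all arrays as independent although animals can recur across the later ages, so p-values measure the spread between these arrays. Blood was stabilised in PAXgene tubes, and total RNA was labelled with 1 dye and hybridised to single-colour arrays of 60-base porcine probes. Levels are given as log2 signal after quantile normalization. The array annotation used here gives no genome position, so none is given.

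Grouped by their known roles after the members were found, 10 of the 24 named probes (7 genes) were placed under striated muscle. Connective tissue took 6 (4 genes), and 8 (7 genes) were placed under neither, with repeat probes counted. LMCD1 and CAV1, placed under neither, are also found in muscle. Of the 13 muscle and 9 connective tissue genes on the marker lists, 3 and 1 were members through the probe used for the list, and no test of enrichment was made. In striated muscle, myosin heavy and light chains pull on actin filaments, and troponin and tropomyosin on the actin filament make the contraction depend on calcium. Each of these proteins comes in forms that differ between heart, slow and fast skeletal muscle, and several heart and slow forms are shared during development. Collagen, decorin and SPARC are secreted mainly by fibroblasts and bone-forming cells, and SPARC is also found in platelets and endothelium. In the fetus, the liver is a main site of blood cell formation, and young red cells with active heme synthesis circulate in larger numbers than after birth.

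The probe letters of 3 named members are printed 5′ to 3′ as the array files give them, because several results below turn on which probe of a gene was read. MYL2 and TPM1 belong to the contractile apparatus and CPOX to heme synthesis.
MYL2: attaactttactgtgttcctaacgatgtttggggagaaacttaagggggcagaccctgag
TPM1: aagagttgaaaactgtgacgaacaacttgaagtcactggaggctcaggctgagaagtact
CPOX: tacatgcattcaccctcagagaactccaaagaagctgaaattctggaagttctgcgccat
A further pair is printed because an unnamed member shares bases with a probe of a named gene, though fewer than the 20 counted below. The second SPARC probe and A_72_P210967, described in the array files only by a weak match to a bacterial transporter, hold the same run of 17 bases, here in capitals.
SPARC, second probe, bases 1 to 30: TTCCACATTTGGATACCtattatgagggat
A_72_P210967, bases 21 to 50: ttctttTTCCACATTTGGATACCctattat
Among the members, 4 pairs shared 20 bases or more, and in each pair both probes had the same gene name (CAV1 55 bases, DCN 54, SPARC 52 and CKM 51). Such pairs are repeat measurements of 1 sequence and not separate genes.

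Arrays of the fetal stage differed from the later ones in how many probes they detected. Between 5678 and 12776 probes were present on a fetal array and between 13428 and 21892 on a later array. The lowest signal well above background lay at 4.48 to 7.17 on the fetal arrays and 2.46 to 4.38 on the later ones, on the log2 scale, so a member was called present at the fetal stage against the higher floor. The arrays were scanned on 5 days. All fetal males were scanned on a day of their own, and the fetal females shared a day with 4 of the 12-week arrays. One 30-week array had conflicting sex labels and was kept as female, as its title says.

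Members were detected on most fetal arrays and on few later ones, as the rule required. Counted per array, 34 to 50 members were present at the fetal stage, 1 to 19 at 12 weeks, 4 to 16 at 20 weeks and 4 to 11 at 30 weeks. On the fetal arrays, 21 members were present on 8 of 8 and 29 on 7 of 8. Of these 29, 16 were absent on fetal male 3, 5 on female 3, 4 on male 2, 2 on male 1 and 2 on male 4. Fetal male 3 thus held the fewest members, 34, while the next lowest array, female 3, held 45. It was also the fetal array with the fewest probes present, 5678, and the part of this in the count of members was not tested. Without male 3 the same rule chose 79 probes, and without male 1 it chose 77, among them all 50 in both cases.

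**Figure D1:**
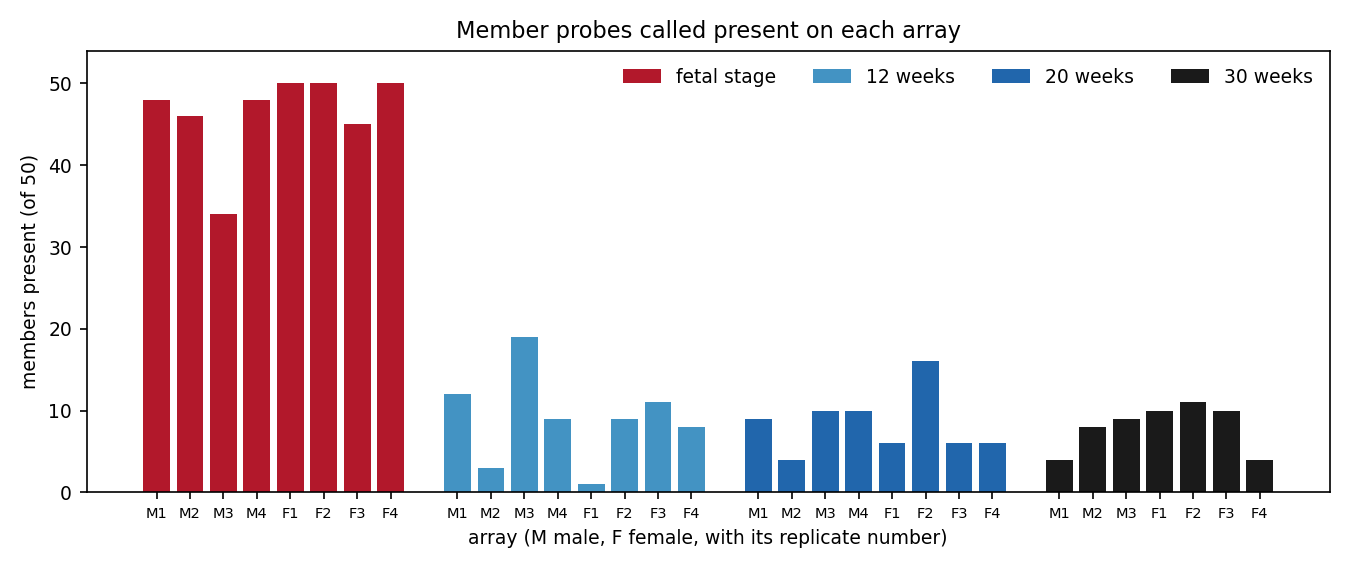
Number of the 50 members called present on each of the 31 arrays, one bar per array, in the order of the 4 ages. The 8 fetal arrays hold 34 to 50 members, with male 3 the lowest, and the 23 later arrays hold 1 to 19.

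After birth, 10 members were present on none of the 23 later arrays, 16 on 1 to 3 arrays and 24 on 4 or more, with 14 arrays the most for any member. At 12 weeks 18 members were absent from every array, at 20 weeks 22 and at 30 weeks 28. The lowest fetal level lay above the highest of all 23 later arrays for 39 of the 50. These counts describe the choice of the probes, which were selected on presence, and carry no test. The fetal means of the members ran from 6.04 to 9.86 with a median of 7.51, against a median of 8.74 over all 5717 probes expressed at the fetal stage. The brightest member, TNNI1, had a higher fetal mean than 70.4% of those probes. Members were thus moderately bright at best, and 84 of their 371 present fetal values lay within 1 log2 unit of the array's floor.

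The levels of most members at the later ages were at background, so each fold is a lower bound on the scale of the quantile-normalized signal. It sets the fetal mean against the later arrays, where each array counts at its floor or at the probe's own signal, whichever is higher. Presence on a fetal array required a signal over that array's floor, and every fetal floor lay above every later one. Part of each bound thus follows from the choice of the members. The bound had a median of 4.02 on the log2 scale over 12 weeks (2.13 to 6.16), 4.60 over 20 weeks (3.0 to 6.94) and 4.60 over 30 weeks (3.0 to 6.99). The measured differences, without the floor, had medians of 5.33, 5.82 and 5.52, while over all 18679 tested probes the median fetal level was lower than the later one by 0.70, 1.15 and 1.1. On the scan day shared by the fetal females and 4 of the 12-week arrays, the median difference was 5.5. With normexp background correction, which adds an offset to every signal, the members' measured medians were 2.16, 2.16 and 2.17. These lie under the median bounds, so the bounds do not hold with that correction. In RNA of whole blood, fewer cells of a type and less RNA per cell cannot be told apart.

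**Figure D2:**
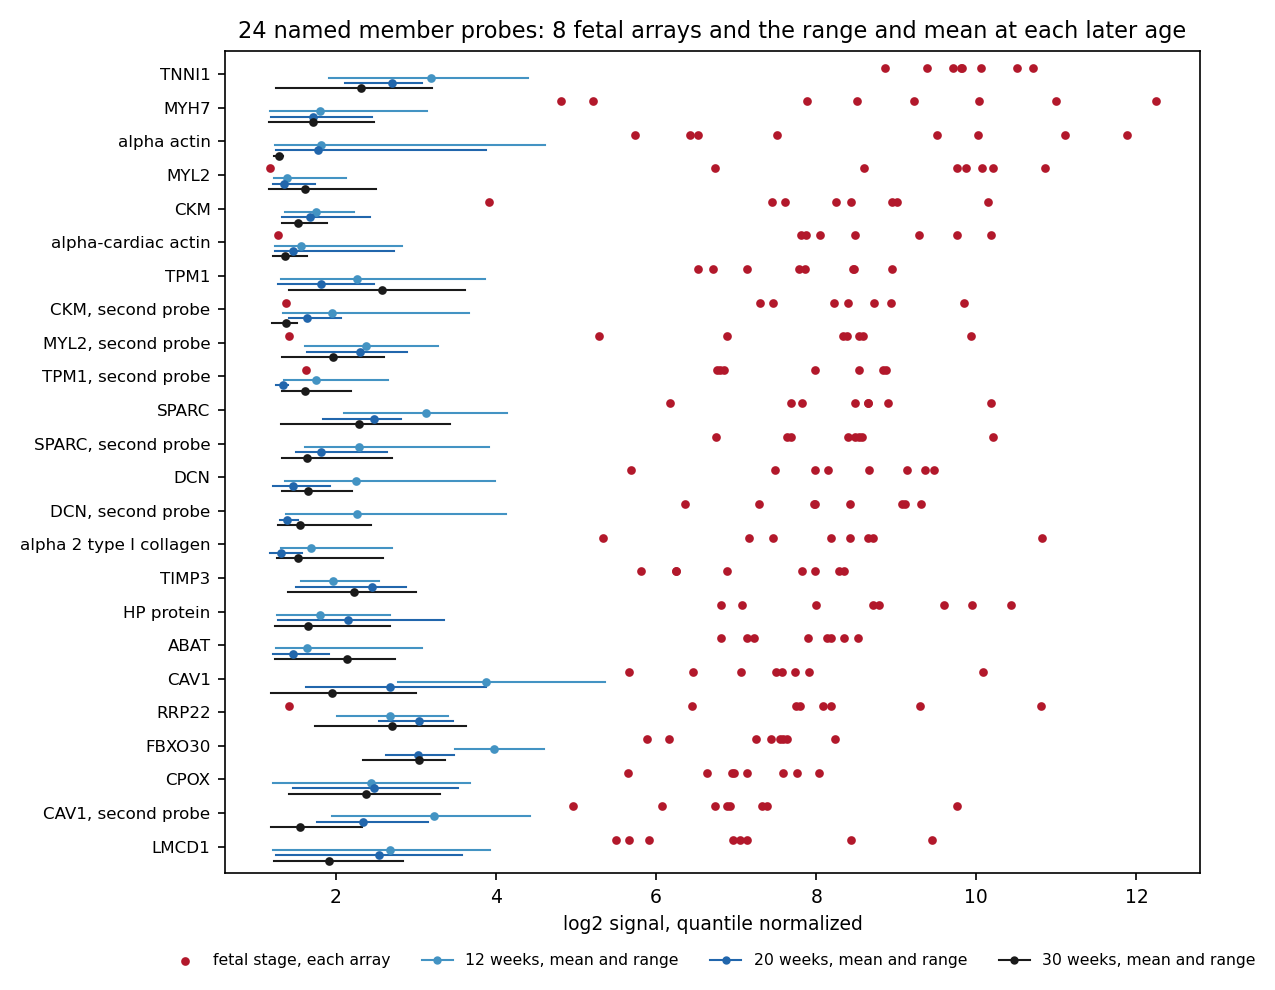
Log2 signal, quantile normalized, of the 24 named member probes, with red points for the 8 fetal arrays and a line and point for the range and mean at each later age. TNNI1 has the highest fetal mean, 9.86, and the isolated low fetal points of MYL2, alpha-cardiac actin, CKM, TPM1 and RRP22 are absent calls on fetal male 3, known only to lie under that array's floor of 7.17.

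Striated muscle supplied 10 of the 24 named probes. TNNI1, the troponin I of slow skeletal muscle and of the developing heart, was the brightest and steadiest of them. Its levels on fetal males 1 to 4 were 10.71, 9.81, 10.51 and 8.86, and on females 1 to 4 they were 10.06, 9.71, 9.39 and 9.82 (9.86 ± 0.59, SD, n = 8). All 8 fetal arrays lay far above the later ones, whose highest value was 4.40. TNNI1 was present on 3 of 8 arrays at 12 weeks, 3 of 8 at 20 weeks and 0 of 7 at 30 weeks, and its fetal level was at least 71.3-fold, 123-fold and 127-fold higher than at 12, 20 and 30 weeks.

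The myosin chains were each absent on male 3 and present on the other 7 fetal arrays. A signal of an absent probe is known only to lie under the array's floor, 7.17 on male 3, and has no order against values below that, while the fetal means include it as measured. MYL2, the regulatory light chain of heart and slow muscle myosin, read 10.86, 9.76, 1.18 and 6.74 on males 1 to 4 and 10.07, 9.87, 8.60 and 10.21 on females 1 to 4 (8.41 ± 3.19, n = 8). Of the arrays on which it was present, male 4 was the lowest. MYL2 was present on no later array, which makes the fetal mean at least 30.3-fold higher than at 12 weeks, 47.3-fold higher than at 20 weeks and 46.4-fold higher than at 30 weeks. Without male 3 its fetal mean was 9.44 ± 1.37 (n = 7). Its second probe, which shares no run of 20 bases with the first, read 9.93, 8.38, 1.42 and 5.29 on the males and 8.34, 8.53, 6.88 and 8.59 on the females, again absent on male 3 and lowest on male 4 among the arrays that measured it.

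MYH7, the heavy chain of slow muscle and heart ventricle, was measured over a wide range. It read 11.00, 7.89, 5.21 and 4.81 on males 1 to 4 and 12.24, 10.03, 8.51 and 9.22 on females 1 to 4 (8.61 ± 2.61). It was absent on male 3, and male 4 was the lowest and female 1 the highest of the others. It was present on 1 of 8 arrays at 12 weeks and on none at 20 and 30 weeks, with a fetal level at least 34.3-fold, 54.4-fold and 53.6-fold higher. Another MYH7 probe, A_72_P325943, missed the rule with presence on 3 of 8 fetal arrays and had its highest level, 9.45, on the same female 1.

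The actin probes had their high values on different fetuses. The probe described as alpha-cardiac actin, the actin of heart muscle, read 9.76, 7.87, 1.28 and 8.05 on the males and 10.18, 8.49, 7.81 and 9.29 on the females (7.84 ± 2.80). The probe described as alpha actin read 7.51, 6.52, 5.74 and 11.88 on the males and 9.51, 6.42, 10.02 and 11.11 on the females (8.59 ± 2.34). Both were absent on male 3, whereas male 4 and female 4 led the alpha actin probe and female 1 and male 1 the cardiac one. Their fetal levels were at least 20.4-fold and 31.4-fold higher than at 12 weeks, and each was present on at most 1 array at any later age. A further probe of the transcript behind the alpha actin member, A_72_P248052, was present on 4 of 8 fetal arrays and was likewise led by male 4 at 11.13 and female 4 at 10.41.

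CKM, the muscle creatine kinase that regenerates ATP beside the contractile filaments, was present on no later array with either of its overlapping probes. The first read 8.25, 7.61, 3.91 and 8.95 on the males and 8.44, 7.45, 9.01 and 10.15 on the females (7.97 ± 1.85). Female 4 was the highest, and male 3 was the only absent array. The fetal level was at least 22.3-fold, 34.9-fold and 34.4-fold higher than at 12, 20 and 30 weeks, and the second probe had a fetal mean of 7.53 ± 2.61 with 1.38 on male 3.

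TPM1, an alpha tropomyosin made in muscle and, in other splice forms, in many other cells, was present on all 8 fetal arrays with 1 probe and on 7 with another. The first read 8.47, 6.52, 7.79 and 6.71 on the males and 8.46, 7.86, 7.14 and 8.95 on the females (7.74 ± 0.88), with no array standing apart. The second read 1.63 on male 3 and 6.76 to 8.87 elsewhere. Further TPM1 probes behaved otherwise. A_72_P087806 was present on all 31 arrays, A_72_P108241 on 8, 6, 8 and 7 arrays at the 4 ages, and A_72_P077561 on 8, 3, 8 and 7, with a fetal mean of 9.48 and a mean of 3.57 at 12 weeks. Presence restricted to the fetal stage thus held for the 2 member probes of TPM1 and not for these 3.

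Most of the 10 probes grouped as striated muscle were absent on male 3, and all were present on the other fetal arrays. LMCD1, also found in muscle but grouped elsewhere, was absent on male 1 and highest on male 3. The median over the 10 probes was 9.30 and 7.74 on males 1 and 2, under the floor on male 3, 7.45 on male 4, and 9.02, 8.24, 8.55 and 9.55 on females 1 to 4. On male 3, 8 of the 10 were absent, and the exceptions were TNNI1 and the first TPM1 probe. The rule allows each member 1 absent fetal array, so absence of a member on a single array is part of the choice. Among probes present on 8 of 8 fetal arrays, the median SD was 1.02 for the 21 members and 0.60 for all 4350. These sets were not matched on level. The 50 members were dimmer than all probes expressed at the fetal stage (median fetal mean 7.51 against 8.74).

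Connective tissue members had another order of arrays. SPARC, a secreted glycoprotein that binds collagen and calcium, read 8.65, 6.17, 10.18 and 8.49 on males 1 to 4 and 8.90, 7.69, 7.82 and 8.65 on females 1 to 4 (8.32 ± 1.15). Male 3, on which most muscle probes were absent, was the highest here, and male 2 was the lowest. SPARC was present on 2 of 8 arrays at 12 weeks, 0 of 8 at 20 weeks and 2 of 7 at 30 weeks, with a fetal level at least 24.6-fold, 43.7-fold and 40.8-fold higher. Its second probe read 6.75 on male 2 and 10.21 on male 3, with a mean of 8.28 ± 1.0.

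The unnamed probe A_72_P210967, printed above for the bases it shares with the second SPARC probe, read 8.33, 6.27, 9.94 and 8.40 on the males and 8.30, 7.22, 6.89 and 8.08 on the females. Its highest array was male 3 and its lowest male 2, as for SPARC. The array files assign its contig also to another SPARC probe, A_72_P202437, which was present on 4 of 8 fetal arrays and on no later one and peaked on male 3 at 9.15. A SPARC probe outside this group, A_72_P130355, was present on 1 fetal array. A_72_P196237, which carries the gene name or transcript of a member and is also described by a bacterial transporter, was present on no array.

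Alpha 2 type I collagen, one of the chains of the main fibrous collagen, read 8.18, 5.34, 10.82 and 8.71 on the males and 8.42, 7.16, 7.46 and 8.65 on the females (8.09 ± 1.56). Male 3 was the highest and male 2, called absent, the lowest. It was present on no later array, with a fetal level at least 24.3-fold, 37.9-fold and 37.3-fold higher than at 12, 20 and 30 weeks. The probes that the gene table pairs with the symbols COL1A1 and COL1A2 were present on no fetal array, so the collagen result rests on 1 probe.

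DCN encodes decorin, a small proteoglycan that coats collagen fibrils. The first of its overlapping member probes read 9.13, 5.69, 9.36 and 8.15 on the males and 8.66, 7.49, 7.99 and 9.47 on the females (8.24 ± 1.25). Female 4, male 3 and male 1 were the highest, and male 2 was the lowest and called absent. It was present on 1 of 8 arrays at 12 weeks and none later, with a fetal level at least 25.3-fold, 42.1-fold and 41.5-fold higher. A different DCN probe, A_72_P280399, was present on all 31 arrays, with a fetal mean of 9.26 ± 1.02 and a mean of 7.07 ± 1.47 at 12 weeks. Over all members, 22 further probes carried the same gene name or transcript, and 7 of them, for DCN, TPM1 and others, were expressed at the fetal stage and at all 3 later ages.

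TIMP3, a matrix-bound inhibitor of the proteases that degrade matrix, read 8.35, 7.82, 8.28 and 6.25 on the males and 7.98, 6.89, 5.81 and 6.25 on the females (7.20 ± 1.02). It did not share the low male 2 of the other matrix genes, and female 3 was its only absent array. Its fetal level was at least 13.1-fold, 19.4-fold and 19.6-fold higher. Over the 6 connective tissue probes the median was 8.59, 6.26, 9.77 and 8.32 on the males and 8.49, 7.38, 7.75 and 8.65 on the females. None of the 6 was absent on male 3, 2 were absent on male 2 and 1 on female 3.

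**Figure D3:**
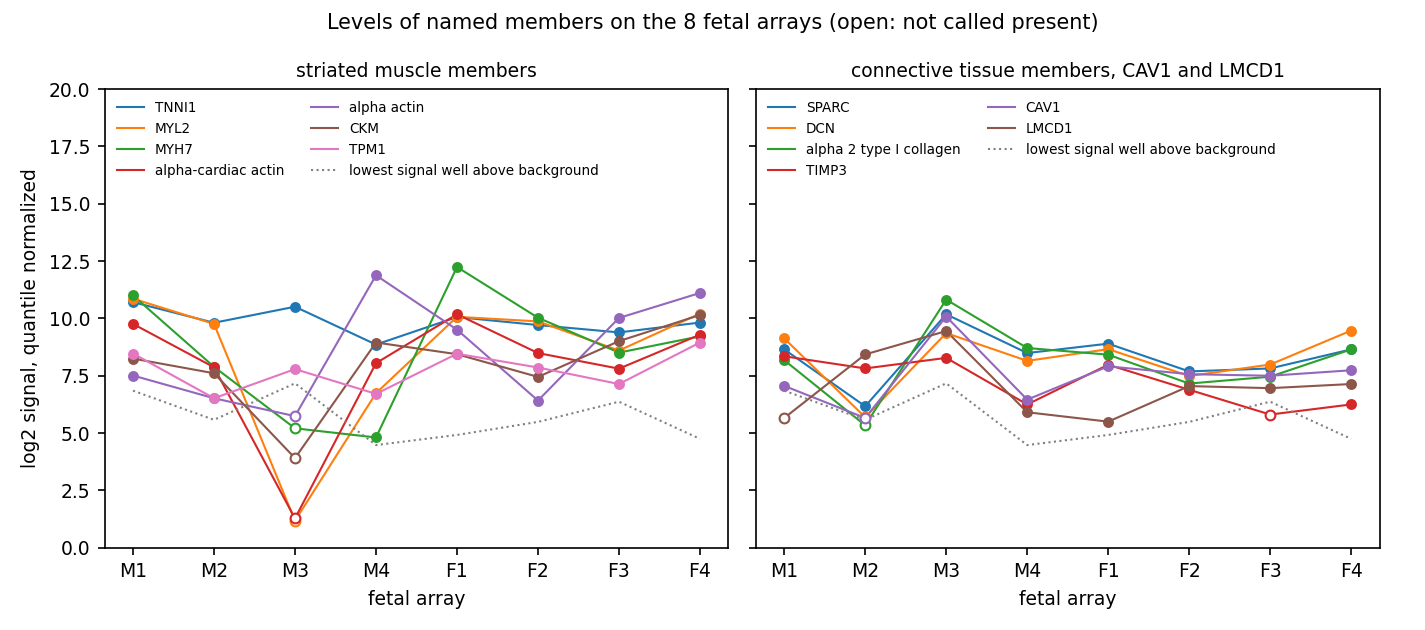
Log2 signal, quantile normalized, of 7 muscle members (left) and of 4 connective tissue members with CAV1 and LMCD1 (right) on the 8 fetal arrays (M male, F female), with open points for absent calls and a dotted line for the lowest signal well above background. Of the 10 muscle probes 8 are absent on M3, while SPARC, alpha 2 type I collagen and CAV1 are highest there.

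CAV1, the scaffold protein of caveolae in endothelium, fat and muscle, also peaked on male 3. It read 7.06, 5.66, 10.08 and 6.46 on the males and 7.91, 7.57, 7.5 and 7.74 on the females (7.5 ± 1.28), with male 2 absent. After birth it was present on 3 of 8 arrays at 12 weeks, 3 of 8 at 20 weeks and 0 of 7 at 30 weeks, and the fetal level was at least 11.2-fold, 22.3-fold and 24.7-fold higher. LMCD1, a LIM-domain protein of heart and skeletal muscle, read 5.66, 8.43, 9.45 and 5.91 on the males and 5.50, 7.05, 6.96 and 7.14 on the females (7.01 ± 1.38). It too was highest on male 3, but male 2 was second here, unlike for SPARC and CAV1. Another LMCD1 probe, A_72_P232202, was present on no array.

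Genes of general metabolism and signalling made up the rest of the named members. CPOX, which carries out a late step of heme synthesis in mitochondria, read 7.59, 6.97, 7.14 and 5.65 on the males and 6.95, 7.76, 6.64 and 8.04 on the females (7.09 ± 0.75). Its SD lay below the members' median of 1.14 and above the median of 0.66 over all probes expressed at the fetal stage. Male 3 was just below the floor and called absent. CPOX was present on 2 arrays at each later age, with a fetal level at least 11.0-fold, 16.7-fold and 16.5-fold higher. ABAT, the enzyme that breaks down the neurotransmitter GABA, ran from 6.81 to 8.52 with a median of 8.02 (7.78 ± 0.64) and was present on 1 later array, at 30 weeks. Its fetal level was at least 19.6-fold, 30.5-fold and 30.0-fold higher.

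FBXO30, a substrate-binding part of a ubiquitin ligase, ran from 5.89 to 8.24 with a median of 7.49 (7.22 ± 0.79) and sat at the limit of the rule. It was present on 6 of 8, 3 of 8 and 5 of 7 arrays at 12, 20 and 30 weeks, and its bounds of 9.27-fold, 17.4-fold and 17.1-fold were among the smallest of the named members. RRP22, a small GTPase of the Ras family, read 10.81, 9.30, 1.41 and 6.45 on the males and 7.75, 8.09, 7.80 and 8.18 on the females (7.47 ± 2.76). Like MYL2 it was absent on male 3 and highest on male 1, and it was present on 1 of 8, 4 of 8 and 3 of 7 later arrays. The probe described as HP protein, without further identity in the array files, read 9.60, 8.79, 10.43 and 8.71 on the males and 9.95, 7.07, 6.81 and 8.0 on the females (8.67 ± 1.32). It was present on 1 later array, at 20 weeks, with a fetal level at least 36.2-fold, 54.5-fold and 55.7-fold higher.

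The 26 members without a name had fetal means of 6.04 to 9.51, and 5 of them were present on no later array. The brightest, A_72_P179551, ran from 7.86 to 10.47 with a median of 9.78 (9.51 ± 0.90), second only to TNNI1 among all members, and its fetal level was at least 63.0-fold, 98.7-fold and 91.6-fold higher. A_72_P061211 followed with 7.13 to 10.32 and a median of 9.37 (9.19 ± 0.99), and A_72_P105886 with 6.41 to 11.96 and a median of 8.43 (8.76 ± 1.74). The lowest array was male 2 in all 3, and A_72_P105886 peaked on male 3 at 11.96, as SPARC and alpha 2 type I collagen did. Over the 26 unnamed probes, 20 were present on male 3 and 22 on female 3. In base composition the members were like the other probes, with a median of 40.0% G or C in the 60 bases against 38.3% over the tested probes.

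Close to the thresholds stood several genes of the same kinds. Just inside at a later age, FBXO30 and A_72_P431059 reached 6 of 8 arrays at 12 weeks, A_72_P063461 and A_72_P140921 reached 6 of 8 at 20 weeks, and FBXO30, A_72_P140921 and A_72_P426689 reached 5 of 7 at 30 weeks. Just outside on the fetal side, 47 probes met the later limits but were present on 6 of 8 fetal arrays, and 29 of these were absent on male 3. They included the muscle genes TNNI3, PLN and MYOZ2, the matrix genes MMP14, COL5A2 and a microfibril-associated glycoprotein, and a pair of probes for the growth factor IGF2. Just outside on the later side were 1 probe at 12 weeks, 5 at 20 weeks, among them glutathione S-transferase and SNX22, and 4 at 30 weeks, among them CYP3A46, a drug-metabolising enzyme that read 14.64 on male 2 and 6.6 to 8.21 on the other fetal arrays.

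The muscle genes that missed the rule split the fetuses in different ways. TNNI3, the troponin I of heart muscle, read 10.91, 8.87, 3.44 and 3.77 on the males and 9.53, 9.73, 8.66 and 9.94 on the females. PLN, the phospholamban that regulates calcium uptake in heart and slow muscle, read 9.19, 7.07, 4.32 and 1.40 on the males and 7.52, 8.08, 6.76 and 8.72 on the females. Both were absent on males 3 and 4, the arrays on which MYH7 and MYL2 were absent and lowest, respectively. MYOZ2, a Z-disc protein of heart and slow muscle, read 8.5, 7.57, 4.56 and 5.38 on the males and 6.95, 6.68, 5.91 and 8.45 on the females, and was absent on male 3 and female 3.

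Fast skeletal muscle genes had their high values on other fetuses. MYL1, a light chain of fast muscle myosin, read 1.58, 2.14, 3.05 and 8.43 on the males and 6.19, 5.15, 8.83 and 9.81 on the females. TNNC2, the fast muscle troponin C, read 5.54, 1.62, 1.57 and 8.61 on the males and 5.93, 3.71, 8.70 and 9.83 on the females. TNNT3, the fast muscle troponin T, read 5.44, 2.21, 2.89 and 7.46 on the males and 5.96, 4.59, 7.67 and 8.15 on the females. All 3, with TNNI2 of fast and TNNT1 of slow muscle, were present on male 4 and females 1, 3 and 4 and on no other fetal array. The same 4 arrays had the 4 highest levels of the alpha actin member. That call pattern was chosen after the values were seen. It was held by 5 of the 10 muscle genes on the list that were not members and by 58 of all 43603 probes (0.133%). Absence on males 3 and 4 alone, the pattern of TNNI3 and PLN, was held by 0 of those 10 and by 16 of all probes (0.0367%). Male 4 and females 4 and 1 had the lowest fetal floors (4.48, 4.75 and 4.92), while that of female 3 was 6.37. TNNI2 was present on all 23 later arrays, while MYL1 and TNNC2 were present on none.

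**Figure D4:**
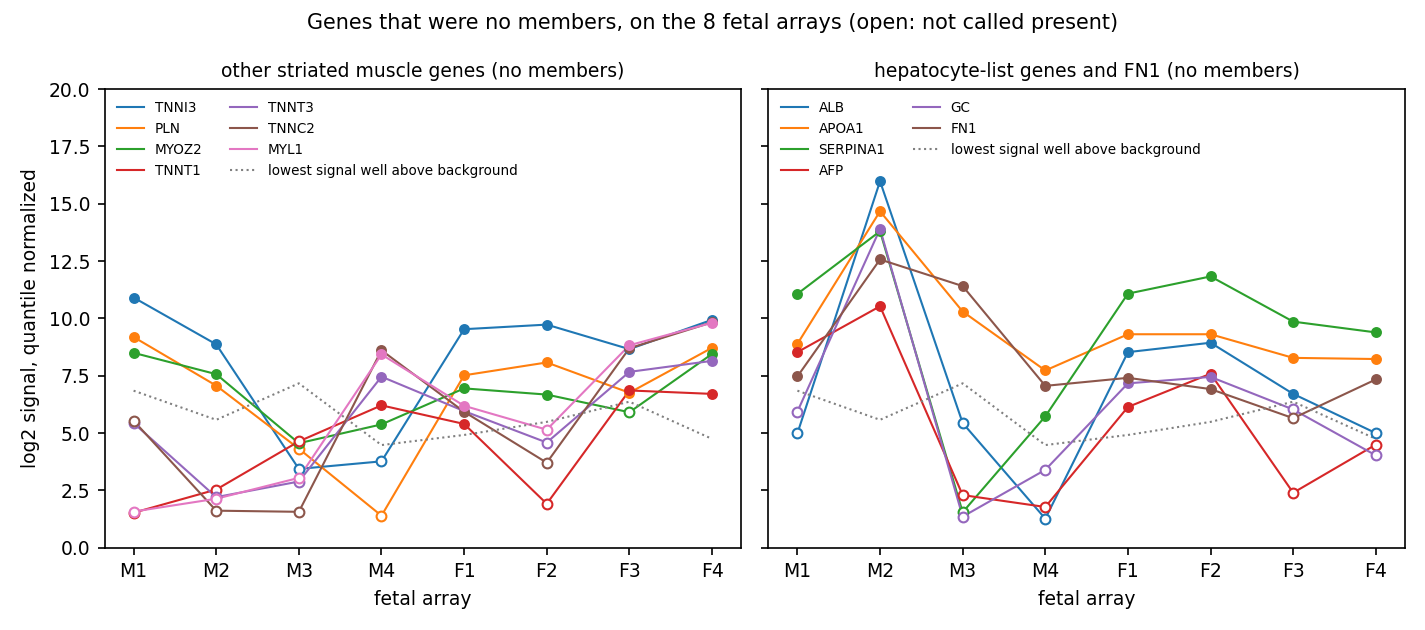
Log2 signal, quantile normalized, of 7 muscle genes that missed the rule (left) and of 5 hepatocyte genes with FN1 (right) on the 8 fetal arrays, with open points for absent calls and a dotted line for the lowest signal well above background. TNNI3 and PLN are absent on M3 and M4, TNNT1, TNNT3, TNNC2 and MYL1 are present on M4, F1, F3 and F4, and ALB reaches 15.98 on M2.

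Markers of other tissues also differed between the fetal arrays and are given beside the members. Of 26 hepatocyte genes, 10, 25, 6 and 12 were present on males 1 to 4 and 18, 16, 11 and 14 on females 1 to 4. Their summed signal on the log2 scale was 17.78 on male 2 and 12.67 to 14.06 on the other fetal arrays, against 11.25 to 13.1 at 12 weeks, 10.39 to 11.65 at 20 weeks and 10.34 to 12.3 at 30 weeks. ALB, the serum albumin of the liver, read 15.98 on male 2 and 1.27 to 8.94 on the other fetuses. It was present on 4 fetal arrays, on none at 12 weeks, on 8 of 8 at 20 weeks and on 3 of 7 at 30 weeks. AFP, TTR, GC and SERPINA1 had the same counts at the later ages. The 20-week arrays shared their scan day with part of the 30-week arrays and with no other age. The part of scan day in these counts was not tested. Male 2, the array richest in hepatocyte signal, was the one on which the member probes of SPARC, DCN, alpha 2 type I collagen and CAV1 were lowest. The DCN probe A_72_P280399, no member, read 8.28 on male 2 and was lowest on male 1 at 7.35.

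Of 5 endothelial genes, 4 were present on male 3, with a summed log2 signal of 11.82, and 1 to 3 on the other fetal arrays, with 7.31 to 9.85. CDH5, the cadherin of endothelial junctions, read 9.43 on male 3, against 1.46 to 6.14 on the other fetuses, and was present on no later array. VWF, made by endothelium and megakaryocytes, read 10.06 there and was present on all later arrays. KDR, another endothelial marker, was present on no fetal array. Male 3 was the highest array for SPARC, alpha 2 type I collagen, CAV1 and LMCD1. Whether RNA from liver, vessel or muscle tissue took part in the members' levels was not tested.

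Fetal females and males were compared with a limit set by the rule. Presence on at least 7 of 8 fetal arrays restricts how far members can differ between the sexes, so the counts below describe the members and are not read against the other probes. Of the 50 members, 3 were higher in females (6%) and 1 was lower (2%) at an adjusted p under 0.05, by limma with Benjamini-Hochberg adjustment over all 18679 tested probes. Over all tested probes, 12.2% were higher in females and 12.8% lower. MYH7 ran from 8.51 to 12.24 in females and from 4.81 to 11.00 in males. The difference in means was 2.77 ± 0.86 (SE, adjusted p = 0.0188). The male mean includes 5.21 on male 3, an absent call known only to lie under the floor of 7.17. The fit pools the spread over the arrays of all ages. For MYH7 the SD was 1.62 in fetal females and 2.86 in fetal males. It was 0.82, 0.44 and 0.47 at 12, 20 and 30 weeks. The SE and adjusted p of MYH7 thus understate the spread between the fetuses. A_72_P063461 was higher by 1.12 ± 0.35 (adjusted p = 0.0197) and A_72_P431059 by 1.86 ± 0.68 (adjusted p = 0.0462) in females. The male mean of A_72_P431059 also includes an absent call on male 3. HP protein was lower in females, by 1.43 on the log2 scale (7.96 ± 1.43 against 9.38 ± 0.81, adjusted p = 0.0448).

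The values of the sexes overlapped for all 4 of these probes. With only the fetal arrays in the limma fit, the adjusted p of these 4 ran from 0.207 to 0.318. When only the 8 fetal arrays entered the fit, limma called 0 of the 50 members at an adjusted p under 0.05, with 1 member at an unadjusted p under 0.05, and 0.134% of all tested probes in each direction. Without male 1 the first fit called 11 members higher, and without male 3 it called 1. The count lower was 5 without male 4, 3 without male 2 or female 1, and 0 without any of the other 5 arrays. All fetal males were scanned on one day and all fetal females on another, so a sex difference and a difference between scan days cannot be told apart.

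The later ages were compared with each other. From 12 to 20 weeks, limma called 0 members higher and 4 lower, with 9 members at an unadjusted p under 0.05. Over all tested probes 14.3% were higher and 12% lower at 20 weeks. The rule limited presence at both ages, so these counts too are a description. No scan day held arrays of both ages, so age and scan day cannot be told apart here. FBXO30 went from presence on 6 of 8 arrays to 3 (adjusted p = 0.0133). A_72_P431059 went from presence on 6 of 8 arrays to 1 (adjusted p = 0.00573), A_72_P424249 from 4 to 0 (adjusted p = 0.0156) and A_72_P426689 from 4 to 1 (adjusted p = 0.0422). No size is given for these 4 probes, because most of their 20-week values were at background. With scaling to the 75th percentile of each array 22 members were lower, with a slide or scan day block 1 was, and with normexp background 0 were. A count of 1 member higher arose without 12-week male 1, 20-week male 1 or 20-week female 1, and of 2 without 12-week male 3 or 12-week female 4. From 20 to 30 weeks, limma called 0 members in either direction, and 0 had an unadjusted p under 0.05. Over all tested probes 0.0107% were higher and 0% lower.

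Genes of 19 lists of cell type and pathway markers that were not members were tested against the fetal stage. Of 131 such genes with a probe, 95 could be tested, and 4 listed genes were members themselves (SPARC, TNNI1, MYH7 and CKM). DCN, which also has member probes, was tested through its brightest probe, A_72_P280399. Genes were called as higher or lower from measured signals, and of the 29 higher at 12 weeks 6 were present on no fetal array, 4 of them with a 12-week mean no higher than the fetal floor. At 12 weeks 29 were higher than in the fetus and 40 lower, at 20 weeks 31 and 36, and at 30 weeks 34 and 41. Over all tested probes, 47.2% were higher and 21.7% lower at 12 weeks, 56.7% and 25% at 20 weeks, and 54.9% and 25.4% at 30 weeks. All 40 genes lower at 12 weeks were also lower on average on the scan day that held both ages. The arrays of that day are part of those that gave the calls, so this is no separate check, and the 29 higher genes were not counted in this way. The median of all tested probes rose by 0.70 from the fetal stage to 12 weeks after quantile normalization and by 0.02 after scaling to the 75th percentile, with which 25 list genes were higher and 54 lower.

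Most tested heme and iron genes other than CPOX were lower at 12 weeks. Of 6 tested heme and iron genes, 4 were lower at 12 weeks and 0 higher, with a median difference of -1.78 beside 0.70 over all tested probes. HEBP1, a heme-binding protein, fell by 3.19 on the log2 scale (SE 0.24, adjusted p = 1.28e-11), and ABCG2, which exports porphyrins, fell by 1.98. Unlike CPOX, both were present on all 8 fetal and all 8 12-week arrays. The iron storage chains FTH1 and FTL differed by 0.20 and -0.01 at 12 weeks and were not called.

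Few listed muscle and matrix genes could be tested. Among 4 muscle genes, DES, the desmin of muscle intermediate filaments, was lower at 12 weeks by 0.94 (adjusted p = 0.0331). MYOG, a transcription factor of muscle differentiation, was present on 4 of 8 fetal arrays and higher by at least 0.64 (adjusted p = 0.00462). DES was present on every fetal array, male 3 included, at 12.33 to 13.30. Both connective tissue genes tested were lower, the DCN probe of all 31 arrays by 2.19 (SE 0.47, adjusted p = 1.99e-04) and FN1, the fibronectin of matrix and plasma, by 2.41 (SE 0.53, adjusted p = 2.48e-04). FN1 was brightest on male 2 at 12.57 and on male 3 at 11.41, against 5.65 to 7.47 on the other fetuses. Of 3 endothelial genes, 0 were called at 12 weeks and 0 at 20 weeks, and PECAM1 and VWF were higher at 30 weeks.

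Most hepatocyte genes tested were lower at 12 and at 30 weeks. Of 19 tested, 14 were lower and 1 higher at 12 weeks, 8 and 0 at 20 weeks, and 14 and 1 at 30 weeks. APOA1, an apolipoprotein, was present on all 8 fetal arrays and 1 array at 12 weeks, with a fetal mean at least 61.8-fold higher (adjusted p = 5.69e-08). SERPINA1 and ALB, also plasma proteins, were present on no 12-week array, and their fetal means were at least 55.7-fold and 12.3-fold higher (adjusted p = 1.80e-06 and 9.58e-05). Without fetal male 2 these bounds were 37.4-fold for APOA1, 35.6-fold for SERPINA1 and 5.11-fold for ALB. TTR, ITIH1 and F2, also called lower, were present on only 3, 2 and 1 fetal arrays. Their bounds went from 2.37-fold, 2.38-fold and 1.85-fold to 1.0-fold, 1.12-fold and 0.832-fold without male 2, so these calls rested largely on that fetus. ANG, a secreted ribonuclease, was higher at 12 weeks by 1.28.

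Red cell and growth lists were mixed. At 12 weeks, of 5 erythroid membrane genes 3 were lower (SLC2A1 by 2.44, RHCE by 1.93 and AQP1 by 1.69). CD47, present on 4 of 8 fetal arrays, was higher by at least 2.12 on the log2 scale. Of 6 erythroid regulators 3 were lower (FOXO3, GATA2 and LDB1) and 2 higher (STAT5B, and JAK2 with presence on no fetal array). Of 7 cell cycle genes 4 were lower and 0 higher, with CCNB1 down by at least 3.02, TOP2A by 2.36 and CDC20 by 1.96. Of 3 fetal and imprinted growth genes 2 were lower, PEG10 by at least 2.44 and a further IGF2 probe by 1.04. IGFBP1, present on 5 of 8 fetal arrays, was higher by at least 1.16. Of 7 placenta and uterus genes 4 were lower, among them SPP1 and HSD3B1, and 3 were called higher, of which PAG6 and CGA were present on no fetal array.

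Monocyte and T cell genes were called higher more often than lower at 12 weeks. Over all tested probes, 47.2% were called higher and 21.7% lower, and these lists hold few genes. At 12 weeks, 6 of 6 monocyte genes were called higher, among them LYZ by at least 3.68, while CD163, FCN1 and CCR2 were present on only 1, 1 and 2 fetal arrays. The same held for 5 of 8 T cell genes, among them CCR7 by at least 3.06 and CD3D by at least 2.88, with CD2 lower by 0.64. Of 4 natural killer genes 2 were higher, led by FCGR3A with 4.09. Of 5 neutrophil genes 2 were higher (MMP9, and CHI3L1 with presence on no fetal array) and 2 lower (PGLYRP1 and ARG1). The B cell genes CD74 and VPREB1 differed by -0.03 and 0.48 and were not called. Of 5 platelet genes SELP and ITGB3 were higher, of 2 mast cell genes GATA2 was lower and MS4A2 was present on no fetal array, and the 1 tested progenitor gene, KIT, was higher. None of the 4 epithelial genes could be tested. Fewer monocyte genes were detected on fetal arrays, with 1 to 5 of 7 present on a fetal array and 5 or 6 on a later one. Fetal arrays also detected fewer probes of any kind, 5678 to 12776 against 13428 to 21892. With each fetal array counted at no less than its floor, the rises of CD163, CCR2 and CD8B had bounds below 0 (-0.46, -0.01 and -0.42). Whether these genes were lower in fetal blood thus cannot be told.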

How the data were processed

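The deposited array files hold spot intensity values on a linear scale, which the authors obtained with Agilent Feature Extraction 9.5.3.1 (background-subtracted processed signal and presence flags per spot). The authors also deposited log2 values normalized by quantile normalization in GeneSpring, used here as an alternative only, since their exact centring is not stated. Here, log2 of the processed signal, averaged over spots without outlier flags, was quantile normalized over 31 arrays with limma 3.58.1 in R 4.3.3. Probes expressed at 1 or more ages (18679) were tested with lmFit and eBayes on 8 group means of age and sex, with Benjamini-Hochberg adjustment and a threshold of 0.05, two-sided. The methods of the study gave the normalization and the presence rule, more than 75% of arrays. The number of arrays limits the precision.

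The members and gene lists were chosen with earlier results of these data known. The rule for named genes was every named member, members called between the fetal sexes, the 3 brightest unnamed members, named probes at the thresholds, other probes of the same genes, and up to 3 called list genes per direction. List genes were matched by accession or symbol (2869 probes, 1852 symbols), with the brightest probe per gene. Some listed genes are not reported here. The scripts were tested on simulated data. Alternatives covered scaling, background correction, filters, slide, scan day and replicate number as blocks, and leaving out each array. Same-numbered arrays did not deviate together throughout (correlations of -0.489 to 0.582, and of -0.0141 to 0.582 between 20 and 30 weeks). Differently numbered arrays were not compared, so whether replicate numbers pair the later arrays was not settled, and all arrays were treated as independent.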

Additional observations from a re-analysis of the deposited data

Results flagged for a closer look

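Of 28 sets of values tested for an array that stands apart from its group, 7 had one, and in all 7 it was fetal male 3. The choice of the members by presence on at least 7 of 8 fetal arrays allows each of them 1 low array. No chance rate applies to these sets, and they are a description. On male 3, MYL2 was 1.18 (next lowest 6.74), CKM 3.91 (next 7.45), the second CKM probe 1.38 (next 7.30), alpha-cardiac actin 1.28 (next 7.81), the second TPM1 probe 1.63 (next 6.76) and RRP22 1.41 (next 6.45), all as log2 signal. All 6 were absent there and are known only to lie under that array's floor of 7.17, so MYL2, the second TPM1 probe and RRP22 on male 3 have no order against their next values. For both CKM probes and alpha-cardiac actin the floor lies under the next value, closely so for CKM, and how far male 3 stands apart is not known. The number of members present was 34 on male 3 and 45 on the next lowest fetal array. Of these probes, all but RRP22 belong to striated muscle genes, and CKM is counted with both of its overlapping probes. Fetal male 3 also had the highest floor (7.17) and the fewest probes present (5678) of the 8 fetal arrays. Their part in these values was not tested.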

How the results depend on the processing

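The number of members followed the presence rule. It was 158 with the positive and significant flag alone (22 shared with the 50), 85 with at least 75% of arrays (46 shared), 105 with more than 50% (43 shared) and 25 with all arrays (21 shared), and leaving out 1 array in turn gave 48 to 79. The members' median fetal difference over 12, 20 and 30 weeks was 2.16, 2.16 and 2.17 with normexp background and 6.61 and 6.34 over 20 and 30 weeks with 75th percentile scaling. Without 1 array it was 5.21 to 5.55, 5.65 to 5.87 and 5.41 to 5.74. The count of members higher in fetal females was 5 with normexp, 1 with slide as a block, 0 with fetal arrays only and 1 to 11 without 1 array. The count lower was 0 with 75th percentile scaling, the deposited values, slide as a block or fetal arrays only, 2 with normexp and 0 to 5 without 1 array. Scan day could not be fitted as a block for the sexes. From 12 to 20 weeks, the count higher was 1 with the deposited values and 0 to 2 without 1 array, and the count lower was 22 with 75th percentile scaling, 0 with normexp, 1 with slide or scan day as a block and 3 to 6 without 1 array. From 20 to 30 weeks it was 0 in both directions under every alternative run. List genes restricted to probes present on all 31 arrays gave 6 higher and 20 lower at 12 weeks, 6 higher at 20 weeks, and 7 higher and 23 lower at 30 weeks. Without 1 array they gave 26 to 30 higher and 35 to 41 lower, 31 to 34 and 35 to 39, and 32 to 35 and 40 to 44. The cause of these changes was not tested.

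With replicate number as a block, which was not shown to pair these arrays, 3 members were higher and 1 lower in fetal females, 2 were higher and 4 lower at 20 than at 12 weeks, 0 differed at 30 weeks, and list genes gave 29 higher and 37 lower at 12 weeks, 31 and 37 at 20 weeks and 35 and 41 at 30 weeks. Of 1575 recomputed values of single genes, 1373 held, 74 moved by more than the spread between arrays, 128 lost their call and 0 reversed. Members near the array floor (84 of 371 present values) are the least certain.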
